A study of Mus musculus with 5 samples.

Results

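The genes of the cytosolic ribosomal proteins were followed in differentiating mouse myoblasts. Members were the rows annotated as protein-coding in GENCODE M21 whose symbol begins with Rpl or Rps, without the Rps6k kinases and Rps19bp1, which gave 91 of 54232 genes. They comprise 43 proteins of the large subunit, 31 of the small subunit, 3 of the stalk, 8 paralogs and 6 copies that the annotation calls protein-coding. Primary myoblasts came from leg muscles, were isolated with magnetic beads and were differentiated for 72 h in horse serum before poly-A RNA was sequenced. The samples were 3 from WT mice and 2 from Elmo2EID/EID mice, named EID here, which carry in every cell a substitution in ELMO2 that favours the open form of this regulator of Rac signalling and fusion. All mice of the study had a mixed C57BL6 and 129SV background, and those used for myoblast isolation were aged 6 to 8 weeks. The question asked of the comparison is how the open form of ELMO2 alters the transcriptome of fusing myoblasts.

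A ribosome holds 1 copy of nearly every ribosomal protein, so cells make these proteins in matched amounts. Their messages are among the most abundant of the cell and carry a 5′ terminal oligopyrimidine (TOP) tract, through which mTORC1 sets their translation. The stalk proteins call elongation factors to the ribosome, and adult striated muscle replaces part of RPL3 with its paralog RPL3L. Ribosomal protein genes have also left many processed pseudogenes in the genome, DNA copies of their messages that can be nearly identical to the gene.

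Libraries held 35021856 to 49381544 counted reads, and values are normalized counts, the reads of a gene divided by the size factor of its sample. All 11 markers of differentiating muscle were measured and 0 passed limma's test (1 at an unadjusted p under 0.05, 0 with edgeR and 0 with DESeq2). Elmo2 itself, altered in its coding sequence and not deleted, had 1642, 1539 and 1660 normalized counts in WT and 1441 and 1327 in EID (log2 fold change -0.22, SE 0.07, limma with Benjamini-Hochberg adjustment, adjusted p = 0.226). Its level says nothing about the substitution, and no value in the table reads the allele. Markers of other cells were not level between the groups. Of 12 endothelial markers, 11 were higher in both EID samples than in any WT sample, against 16.7% of all genes tested. The 12 markers had summed levels of 396 to 1302 in WT and 2988 to 4486 in EID, with none at 0. By limma's test 0 of the 12 passed (9 higher at an unadjusted p under 0.05, against 1258 of all 18156 genes tested, 1 with edgeR, 5 with DESeq2). The remaining marker, Cldn5, was low and lay the other way, with 4.49 to 6.18 normalized counts in WT and 4.47 and 1.79 in EID. Their part in the results on ribosomal proteins was not tested. In RNA from a whole culture, fewer cells of a type and less RNA per cell cannot be told apart.

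Of the 91 genes, 85 reached 5 normalized counts in at least 1 sample and were tested. The 6 others were Rpl10l, a testis paralog, and the annotated copies Rpl9-ps1 and Rpl36-ps4, listed at 0 in every sample, and the copies Rps12-ps3, Rpl10-ps3 and Rpl36a-ps1, whose highest values were 2.65, 3.37 and 3.37 normalized counts. All 77 genes of the large subunit, the small subunit and the stalk were tested. They took 2.09%, 2.03% and 1.79% of all normalized counts in WT 1, WT 2 and WT 3, and 1.70% in EID 1 and 1.70% in EID 2. Both EID shares lay under the 3 WT shares, with WT 3 closest to them.

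Of the 85 genes tested, 3 fell and 0 rose in EID, namely Rpl30, Rplp0 and Rps3a1, 1 from each of the large subunit, the stalk and the small subunit. Over all 18156 genes tested, limma called 2.23% in either direction and 1.14% lower, against 3.53% lower among the ribosomal protein genes. At an unadjusted p under 0.05, 25 of the 85 genes were lower and 1 was higher, where 8.31% of all genes tested were lower. DESeq2 called 5 lower and 0 higher (3.31% lower over all genes it tested) and edgeR called 3 lower and 0 higher (1.13%). Small shifts in 1 direction were far more common than calls. The log2 fold change was below 0 for 81 of the 85 genes (95.3%), against 47.9% of all genes tested, and for 42 of them (49.4%) both EID samples lay below all WT samples, against 15.9%. For 1 gene both lay above, against 16.7%.

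**Figure D1:**
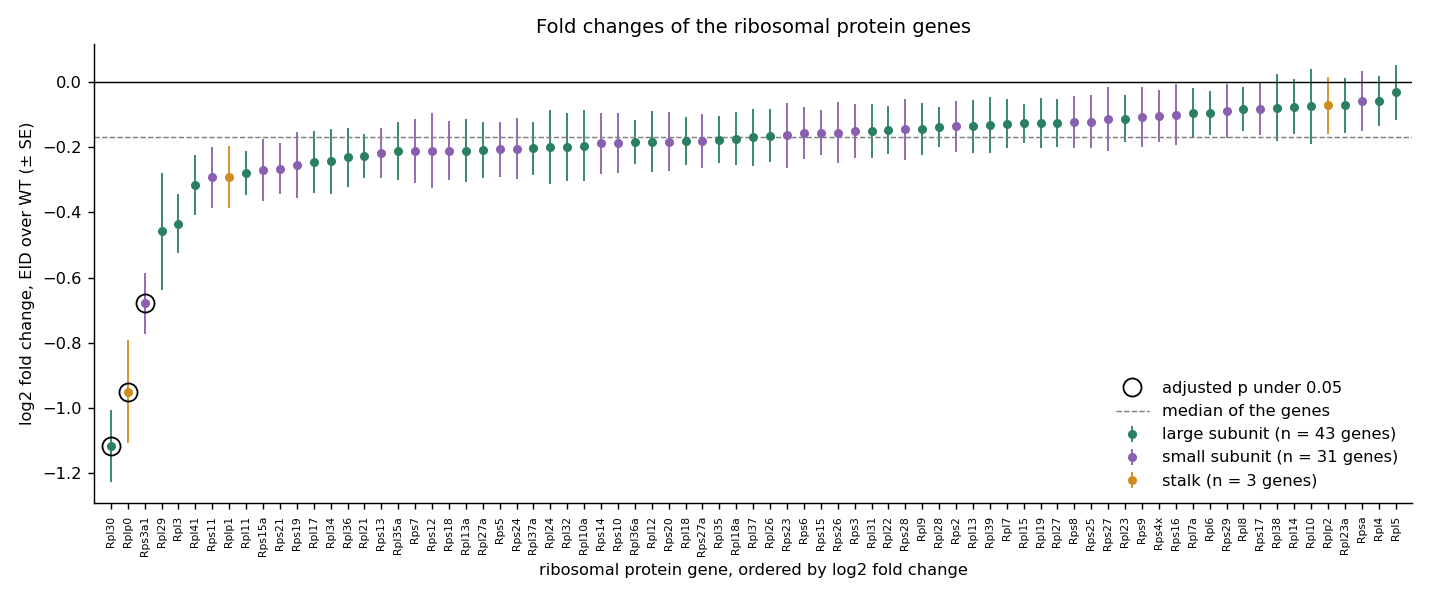
Log2 fold change of each of the 77 subunit and stalk genes, EID (n = 2 samples) over WT (n = 3 samples), with the SE from limma; colours mark the subunit, rings the genes with adjusted p under 0.05 and the dashed line the median. All points lie below 0, 72 of 77 within 0.15 of the median of -0.17, and Rpl30, Rplp0, Rps3a1, Rpl29 and Rpl3 lie apart at the left.

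Most of the genes lay close together. The median log2 fold change of the 77 subunit and stalk genes was -0.17 (quartiles -0.21 and -0.12), with an SD of 0.17. The 801 other genes at the middle levels of the ribosomal proteins had a median of 0.04 (quartiles -0.04 and 0.11) with an SD of 0.20. The SD over the 73 ribosomal protein genes other than Rpl30, Rplp0, Rps3a1 and Rpl3, left out for their values, was 0.07, and no genes were left out of the 801 in the same way. No subunit or stalk gene was more than 0.15 above the median, and 5 were more than 0.15 below it. Large subunit and small subunit genes had medians of -0.17 and -0.16. The plot of fold changes by gene shows this common shift and the genes that leave it.

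The common shift was not larger than the spread between WT samples. All 77 genes were lower in WT 3 than in WT 1 and WT 2, by a median of 0.21 on the log2 scale (range 0.06 to 0.34 lower), against 36.6% of the 801 genes at like levels. In turn EID lay a median of 0.03 below WT 3, and 41 of the 77 genes were below WT 3 in both EID samples. The median deviations of the genes from their means were 0.13, 0.15, -0.07, -0.11 and -0.08 in WT 1, WT 2, WT 3, EID 1 and EID 2. Markers of cycling cells were also higher in WT 1 and WT 2 than in the other samples, with summed levels of 5739, 5741 and 4617 normalized counts in WT and 4435 and 4589 in EID. Of the 10 cycling markers, none was at 0. In 5 of them both EID samples were lower than all WT samples, against 15.9% of all genes tested. By limma's test 0 of the cycling markers passed (4 lower at an unadjusted p under 0.05, against 8.31% of all genes tested, 0 with edgeR, 0 with DESeq2). Their part in the shift was not tested. With every sample shifted to the same median of the members, Rpl30, Rplp0 and Rps3a1 were called lower as before, where limma called 0.832% of all genes lower.

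**Figure D2:**
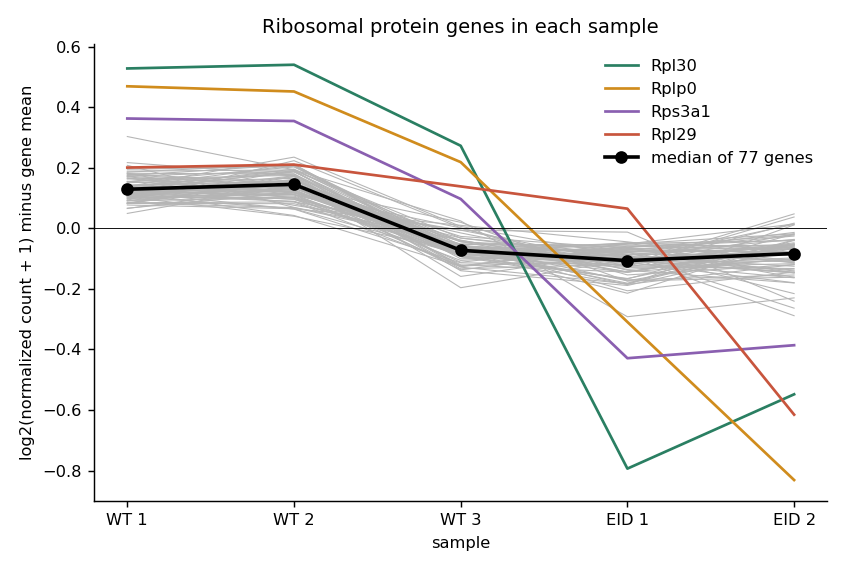
Log2(normalized count + 1) minus the mean of the gene over the 5 samples, for each of the 77 subunit and stalk genes (grey lines) with their median in black and 4 genes in colour. The median is 0.13 and 0.15 in WT 1 and WT 2 and between -0.11 and -0.07 in WT 3, EID 1 and EID 2, whereas Rpl30, Rplp0 and Rps3a1 are above 0 in WT 3 and far below in both EID samples.

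Rpl30, a small protein of the large subunit that also takes part in reading selenocysteine codons, had the lowest log2 fold change of the 85 genes. It lies on the minus strand of chr15:34440505-34443640 (GRCm38). It had 6511, 6566 and 5455 normalized counts in WT and 2604 and 3087 in EID, so that the groups were far from overlapping. The mean fell from 6177 ± 626 (SD, n = 3) to 2846 ± 342 (SD, n = 2), a ratio of 0.461 and a log2 fold change of -1.12 (SE 0.11, limma with Benjamini-Hochberg adjustment, adjusted p = 0.00586). Rpl30 was called in 16 of 19 alternative analyses. Without EID 1 its adjusted p was 0.0804, without EID 2 it was 0.0755, and limma without a mean-variance trend gave 0.0722. Of 13 tested genes within 1 Mb of Rpl30, 3 passed limma's test, against 1 of 41 near Rplp0, 0 of 14 near Rps3a1, 3 of 43 near Rpl3 and 2.23% of all genes tested. The nearest of the 3, chosen after its values were seen, was Matn2, an extracellular matrix protein whose gene ends 4.23 kb away on the opposite strand. Matn2 had 166, 133 and 198 normalized counts in WT and 866 and 751 in EID (log2 fold change 2.29, limma adjusted p = 0.00234). Of the others, Laptm4b was also higher (log2 fold change 0.65, limma adjusted p = 0.0385) and Cpq was lower (-0.84, 0.0226).

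Rplp0 encodes the base of the stalk, on which the pairs of RPLP1 and RPLP2 sit, and lies on the plus strand of chr5:115559467-115563727. It had 38944, 38482 and 32736 normalized counts in WT and 22704 and 15811 in EID. Both EID samples were below all WT samples, and they stood apart from each other by 0.52 on the log2 scale. The log2 fold change was -0.95 (SE 0.16, limma with Benjamini-Hochberg adjustment, adjusted p = 0.0375), and the adjusted p rose above the threshold when any 1 of the 5 samples was left out (0.0502 to 0.222), without the filter on low values (0.132) and without a mean-variance trend (0.172). With its pseudogene copies added, Rplp0 had a log2 fold change of -0.52 (limma adjusted p = 0.0483). Its partners had log2 fold changes closer to 0. Rplp1 had 20716, 20773 and 17774 normalized counts in WT and 17111 and 15138 in EID (log2 fold change -0.29), and Rplp2 had 14501, 14166 and 12236 in WT and 12751 and 13127 in EID (-0.07), neither of which passed the test.

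Rps3a1, a small subunit protein near the exit of the message, lies on the minus strand of chr3:86137940-86142702. It had 16244, 16151 and 13511 normalized counts in WT and 9383 and 9667 in EID. The groups did not overlap and the EID samples were close to each other. The log2 fold change was -0.68 (SE 0.09, limma with Benjamini-Hochberg adjustment, adjusted p = 0.0200), and without WT 1, WT 2, EID 1 or EID 2 the adjusted p was 0.0900, 0.0651, 0.169 or 0.221. The call of Rps3a1 also ended without the filter on low values (0.0858), without a mean-variance trend (0.132) and with its pseudogene copies added, which gave a log2 fold change of -0.29 (0.218).

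Rpl3, at the centre where peptide bonds form, did not pass the test. It lies on the minus strand of chr15:80077791-80091868. It had 13423, 12438 and 11065 normalized counts in WT and 8885 and 9277 in EID, again without overlap. The log2 fold change was -0.43 (SE 0.09, limma with Benjamini-Hochberg adjustment, adjusted p = 0.0685). Rpl3 passed with quantile normalization (adjusted p = 0.0493), with DESeq2 (0.00127), without WT 3 (0.0319) and with crossed replicate numbers as a block (0.00751). The crossed numbers were chosen after seeing the data. With the replicate numbers as given used as a block, Rpl3 did not pass (limma adjusted p = 0.0734). Over the alternatives its adjusted p ranged from 0.00127 to 0.361.

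Rpl29, a small basic protein of the large subunit, rested on 1 sample. It had 5416, 5453 and 5187 normalized counts in WT, 4930 in EID 1 and 3076 in EID 2. EID 2 was 0.68 below EID 1 on the log2 scale, where 75 of the 77 genes differed by -0.23 to 0.25 between the EID samples and Rplp0 was the other exception. The log2 fold change of Rpl29 was -0.46 (SE 0.18, limma with Benjamini-Hochberg adjustment, adjusted p = 0.290), -0.80 without EID 1 (adjusted p = 0.0393) and -0.12 without EID 2 (0.649).

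**Figure D3:**
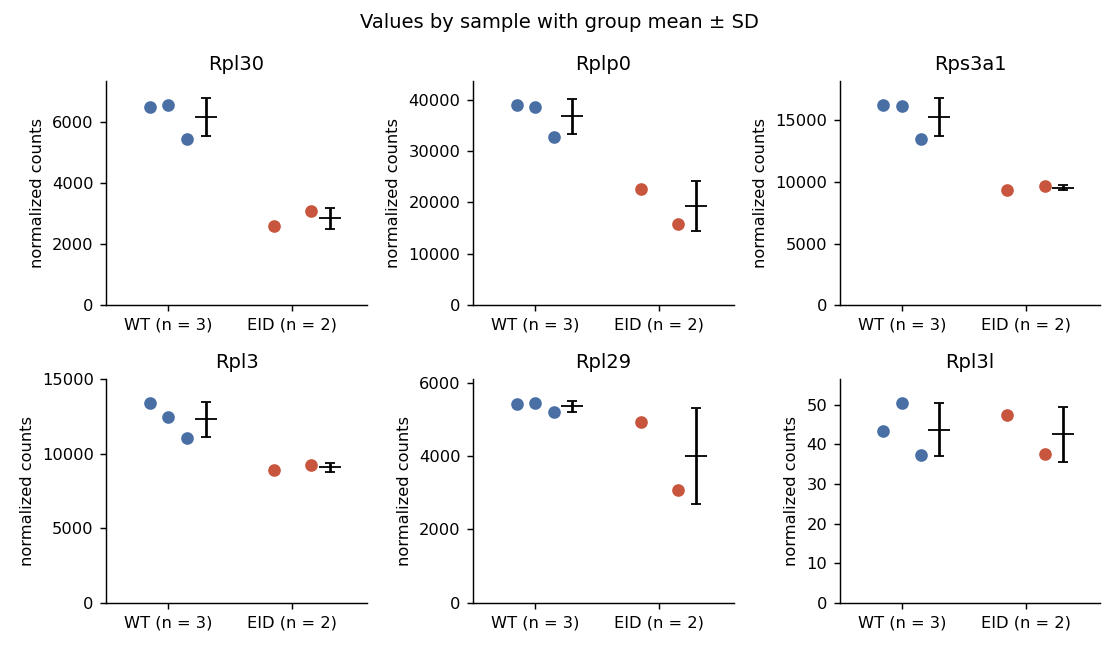
Normalized counts of 6 genes in each sample, WT in blue (n = 3) and EID in red (n = 2), with the group mean ± SD in black; every axis starts at 0. Rpl30, Rplp0, Rps3a1 and Rpl3 do not overlap between the groups, Rpl29 is low in 1 EID sample, and Rpl3l overlaps with 37.3 to 50.5 normalized counts in WT and 37.7 and 47.4 in EID.

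At the other end, the subunit genes that moved least were Rpl5, which carries a small ribosomal RNA into the large subunit, Rpl4, whose loop lines the exit tunnel, and Rpsa, the laminin receptor protein of the small subunit. Rpl5 had 7682, 7282 and 6481 normalized counts in WT and 6822 and 7140 in EID (log2 fold change -0.03, 95% interval -0.23 to 0.17). Rpl4 and Rpsa had log2 fold changes of -0.06 and -0.06. In all 3 genes the groups overlapped.

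The paralogs had WT means of 0 (Rpl10l) to 3715 (Rpl7l1) normalized counts, and none passed the test in either direction (1 higher and 1 lower at an unadjusted p under 0.05, 0 with edgeR and 0 with DESeq2). Rpl3l, the striated muscle paralog of Rpl3 on chr17:24727820-24736143, had 43.3, 50.5 and 37.3 normalized counts in WT and 47.4 and 37.7 in EID, from 30 to 53 reads a sample. Its groups overlapped (log2 fold change -0.04, 95% interval -0.63 to 0.56, limma with Benjamini-Hochberg adjustment, adjusted p = 0.964). The sign of this difference changed in 3 of 19 alternatives. No 50-base stretch of its transcript was found in another gene. Per kb of transcript, Rpl3l stood at 31.8 normalized counts in WT against 9111 for Rpl3. Its share of the pair per length was 0.316%, 0.397% and 0.330% in WT and 0.521% and 0.397% in EID. That share sets the level of Rpl3l against a parent that was itself lower in EID.

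Rpl39l, a paralog best known from testis, had the highest fold change of all 85 genes from very few reads. It had 1.77, 4.49 and 7.46 normalized counts in WT and 9.84 and 17.9 in EID, which are 2, 4, 6, 11 and 20 reads. The groups did not overlap, and the log2 fold change of 1.51 (SE 0.59) did not pass (limma with Benjamini-Hochberg adjustment, adjusted p = 0.293). WT 1 was under the level of 3 reads, which is 2.65 to 3.73 normalized counts by sample.

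Rps27l, a paralog of Rps27 induced by p53, had 2364, 2516 and 2085 normalized counts in WT and 2002 and 1885 in EID (log2 fold change -0.25). Rpl22l1, the paralog of Rpl22, had 1562, 1515 and 1340 in WT and 1375 and 1202 in EID (log2 fold change -0.19). Rpl22l1 made up 39.98%, 39.7% and 39.4% of its pair per length in WT and 40.9% and 37.0% in EID, by far the largest share of any paralog, and Rps27l made up 17.5% to 18.1% in WT and 17.3% and 15.5% in EID. Rpl7l1, a nucleolar relative of Rpl7, had 3612, 3726 and 3808 normalized counts in WT and 3773 and 3462 in EID, with the highest WT value in WT 3. The remaining tested genes of this kind were Rpl36al (241 to 287 in WT, 271 and 271 in EID), Rps27rt (31.4 to 34.5 and 32.3 and 38.5) and the annotated copy Rpl9-ps6 (33.6 to 40.6 and 37.7 and 42.9), all with overlapping groups. Rps4l, a relative of Rps4x that GENCODE M21 calls a transcribed pseudogene and which is therefore no member, had 171, 369 and 424 in WT and 317 and 261 in EID.

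Levels per length differed widely between proteins of the same particle. Over the 77 genes in WT, normalized counts per kb of the principal transcript had a median of 11371 and ranged from 534 for Rpl24 to 39587 for Rplp1, a ratio of 74.2. The median of all tested genes with a transcript length was 126. The highest after Rplp1 were Rps15, in the head of the small subunit, at 28598, Rpl4 at 27455, Rplp0 at 27040 and Rpl32, of the large subunit, at 26864. The lowest after Rpl24, a protein of the bridge between subunits, were Rpl13a, known for silencing messages after interferon, at 1418, the small subunit gene Rps15a at 1783, Rpl5 at 3496 and the large subunit gene Rpl15 at 3642. These levels depend on the transcript chosen, since the principal transcript of Rps15a is 5179 bases long, and with merged exon lengths the lowest level was 351. They also cover only reads that mapped to 1 place, and 81.7% of the 50-base stretches of Rpl24 were found in other genes. Across the 77 genes the order of the levels in WT and EID was nearly the same (Spearman's rho 0.98, across genes of shared libraries).

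The annotated starts of 10 of 84 ribosomal protein transcripts (11.9%) began with a C followed by at least 4 bases that are C or T, on the sense strand, against 2.25% of 14330 tested protein-coding genes. Annotated starts often lie some bases from the start in use, so this counts only the letters in the annotation.

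Some pseudogenes of ribosomal proteins rose in EID, among them copies of the genes that fell. By sequence match 2351 pseudogenes were assigned to 82 of the 91 genes, and a median of 48.4% of the 50-base stretches of a subunit or stalk transcript (range 0% to 88.1%) was found unchanged in a pseudogene. Of 292 copies tested, limma called 26 higher and 1 lower in EID, from 9 parent genes for those that rose, where 1.09% of all genes tested were called higher. Summed over all copies, WT samples had 12407 to 14142 normalized counts and EID samples 23416 and 28365.

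Gene and copy are shown for the copies of Rplp0, Rps3a1 and Rpl3 with the largest rise, since single bases set them apart. Each pair gives the 50 coding bases with the most differences, sense strand, 5′ to 3′, from the GENCODE M21 transcripts (GRCm38), with differing bases in capitals. The Rplp0 window spans coding positions 344 to 393, counted from the A of the start codon, and its copy Gm8730 lies at chr8:102865406-102865455 on the minus strand. The Rps3a1 window spans coding positions 211 to 260 and its copy Rps3a3 lies at chr13:108670813-108670862 on the plus strand. The Rpl3 window spans coding positions 8 to 57 and its copy Rpl3-ps1 lies at chrX:13202579-13202628 on the plus strand.
Rplp0: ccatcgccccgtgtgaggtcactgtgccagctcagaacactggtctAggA
Gm8730: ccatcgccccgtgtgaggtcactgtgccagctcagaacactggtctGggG
Rps3a1: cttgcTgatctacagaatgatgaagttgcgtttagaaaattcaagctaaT
Rps3a3: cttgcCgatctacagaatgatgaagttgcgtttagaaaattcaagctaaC
Rpl3: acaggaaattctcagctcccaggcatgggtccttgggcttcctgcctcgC
Rpl3-ps1: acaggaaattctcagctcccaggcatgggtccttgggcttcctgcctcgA

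Over the aligned length, Gm8730 differed from Rplp0 at 12 of 954 bases, Rps3a3 from Rps3a1 at 9 of 795 and Rpl3-ps1 from Rpl3 at 2 of 1210. Of the 50-base stretches of the transcript, 27.3% of Rplp0 were also in Gm8730, 39.9% of Rps3a1 in Rps3a3 and 81.5% of Rpl3 in Rpl3-ps1. The study counted reads that mapped to 1 place only, from paired ends of 50 bases. Where such a read differs from gene and copy by different bases, the count goes to whichever is closer, and the rows of these families are therefore uncertain.

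Gm8730 had 80.4, 62.8 and 63.4 normalized counts in WT, 2313 in EID 1 and 5181 in EID 2 (log2 fold change 5.64, limma with Benjamini-Hochberg adjustment, adjusted p = 0.000706). EID 2, with the lower value of Rplp0, had the higher value of the copy. The 22 copies of Rplp0 together had 298, 262 and 249 normalized counts in WT and 4004 and 8825 in EID. Rps3a3 had 60.1, 65.1 and 49.7 in WT and 2720 and 2944 in EID, and Rpl3-ps1 had 46.8, 52.7 and 58.4 in WT and 1242 and 1250 in EID. Both were far apart between the groups and close within them. A further Rpl3 copy, Rpl3-ps2, fell from 101, 84.1 and 73.3 in WT to 8.05 and 4.48 in EID. Rpl3-ps1 and Rpl3-ps2 lie on the X chromosome, and all 5 samples had Xist at 11825 to 19014 normalized counts with 4 Y-linked genes at 0 to 1.24.

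**Figure D4:**
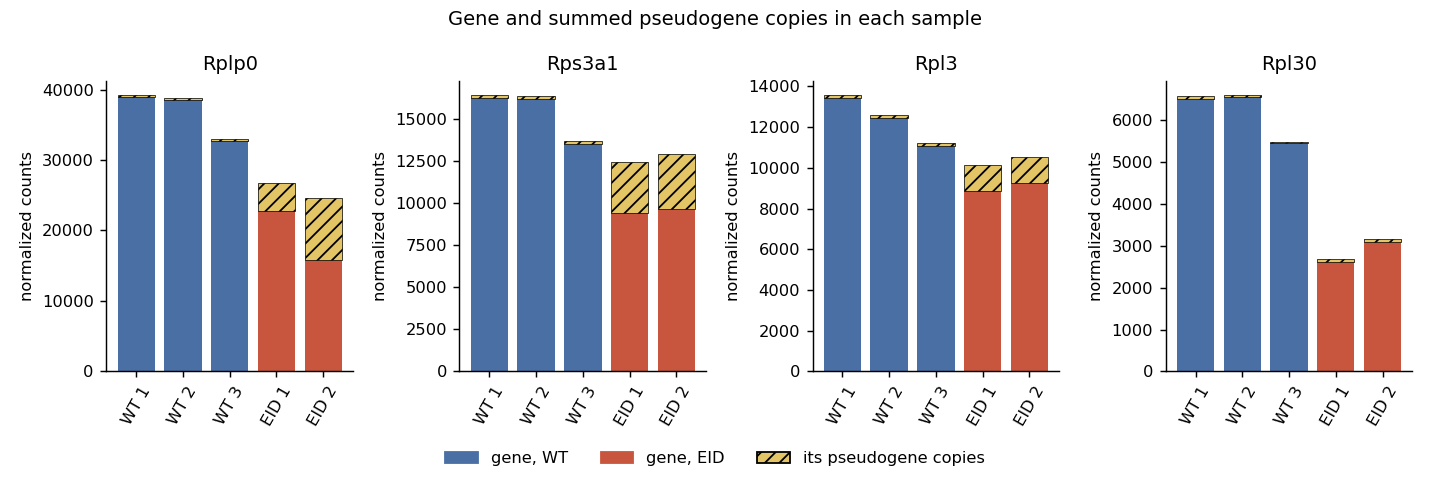
Normalized counts of Rplp0, Rps3a1, Rpl3 and Rpl30 in each sample (solid, WT in blue and EID in red) with the sum of their pseudogene copies stacked on top (hatched); axes start at 0. The copies of Rplp0 reach 4004 and 8825 in EID against 249 to 298 in WT, those of Rps3a1 and Rpl3 are higher in both EID samples, and those of Rpl30 stay at 87.9 or less.

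Adding the copies to their gene changed some members and not others. With copies added, Rplp0 had a log2 fold change of -0.52 (limma with Benjamini-Hochberg adjustment, adjusted p = 0.0483) in place of -0.95, Rps3a1 -0.29 (0.218) in place of -0.68, and Rpl3 -0.26 (0.228) in place of -0.43. Rps3a1 thus lost its call and Rplp0 stayed just under the threshold. Rpl30 kept -1.09 (adjusted p = 0.00651), since its 25 copies had 39.8 to 63.6 normalized counts in WT and 84.1 and 87.9 in EID. These sums cover pseudogenes only. Of the stretches of the Rpl30 transcript, 47.8% were found in pseudogenes and 28.6% in other genes, whose counts were not added. The share in other genes was 0.535% for Rplp0, 0.323% for Rps3a1 and 0% for Rpl3. Whether the fall of Rpl30 depends on those other genes was not tested. The gain of the copies amounted to 35.2% of the loss of Rplp0, 51.1% of that of Rps3a1, 34.5% of that of Rpl3 and 1.11% of that of Rpl30. How far reads moved between gene and copy was not tested.

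In all, the sum moved the log2 fold change by more than 0.05 in 9 of the 77 genes, Rplp0, Rps3a1 and Rpl3 included, and by no more than that in 68. For Rpl11, a partner of Rpl5, it moved from -0.28 to -0.10, and for Rps13 from -0.22 to -0.10. For Rpl13a and Rpl15 it moved from -0.21 to 0.15 and from -0.13 to 0.01, and these were the 2 genes above 0. The SD over the 77 genes was 0.17 before and 0.14 after, and the median went from -0.17 to -0.15. Across genes, the share of a transcript found in pseudogenes was almost unrelated to the log2 fold change (Pearson's r -0.02, Spearman's rho 0.03, n = 77 genes from shared libraries).

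**Figure D5:**
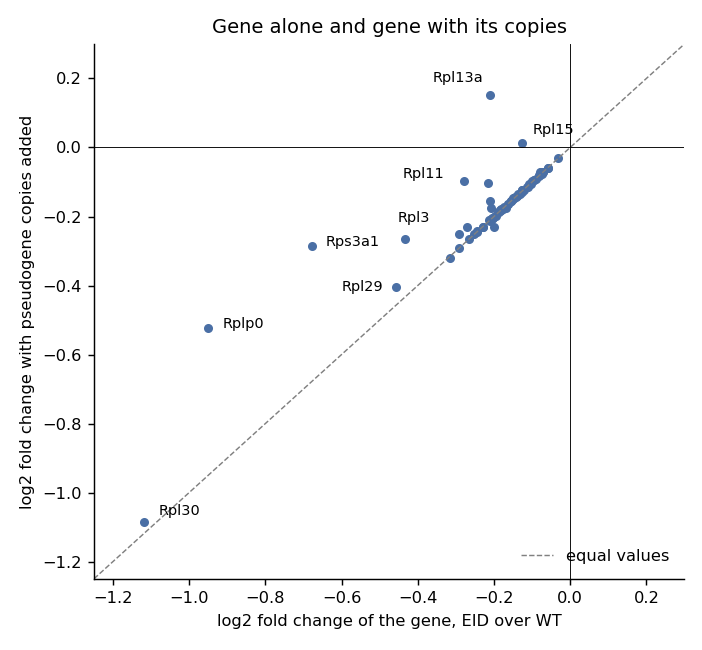
Log2 fold change (EID over WT) of each of the 77 subunit and stalk genes alone (x axis) and with its pseudogene copies added (y axis); the dashed line marks equal values. Most genes, Rpl30 among them, lie on the line, while Rplp0, Rps3a1, Rpl3, Rpl11 and Rpl13a lie above it.

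Copies of 4 genes were high in 1 EID sample. Gm8210, a copy of Rpl29, had 6.22 to 7.95 normalized counts in WT, 6.26 in EID 1 and 238 in EID 2, the sample in which Rpl29 was low. Gm6472, a copy of Rps7, had 145 to 175 in WT, 811 in EID 1 and 141 in EID 2. Rps7, a small subunit protein that binds Mdm2, had 10447, 10216 and 8757 in WT, 7949 in EID 1 and 8976 in EID 2, so that it was also lower in the sample with more of the copy. Gm11942, matched to Rplp1 when only ribosomal protein genes were offered as parents, had 4.97 to 8.84 in WT, 4.47 in EID 1 and 783 in EID 2. Gm11243, a copy of Rpl27a, had 92.0 to 130 in WT, 142 in EID 1 and 389 in EID 2. With copies added, Rpl29 still had a log2 fold change of -0.40 (limma with Benjamini-Hochberg adjustment, adjusted p = 0.278).

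Of ribosomal proteins whose symbols fall outside the rule, Fau, which gives a small subunit protein, had a log2 fold change of -0.16 and Rack1, the scaffold on the small subunit, -0.12. Neither passed limma's test, nor that of edgeR or DESeq2, and the groups of both overlapped.

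Of 14 translation factors and other genes with TOP messages, 0 passed limma's test (1 lower at an unadjusted p under 0.05, 0 with edgeR and DESeq2), with a median log2 fold change of -0.04 against 0.01 over all genes tested. The log2 fold change was below 0 for 11 of the 14 (78.6%), against 47.9% of all genes tested. Their median deviations were 0.08, 0.03 and -0.07 in WT 1, WT 2 and WT 3 and -0.05 and -0.01 in EID 1 and EID 2. The elongation factor Eef1a1 had 221306, 211562 and 202901 normalized counts in WT and 208125 and 203735 in EID, overlapping groups. Its muscle and nerve isoform Eef1a2 had 451, 424 and 460 in WT, 363 in EID 1 and 179 in EID 2 (log2 fold change -0.80, limma with Benjamini-Hochberg adjustment, adjusted p = 0.228).

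None of 28 ribosome biogenesis factors, 3 chaperones of ribosomal proteins, 11 regulators of TOP messages and mTORC1 and 3 ribosomal stress genes passed limma's test, and 0 did at an unadjusted p under 0.05, with edgeR or with DESeq2. Their median log2 fold changes were -0.00090, 0.04, -0.02 and -0.06. The 78 mitochondrial ribosomal protein genes, whose products build the separate ribosome of that organelle, had a median of 0.02 with quartiles of -0.05 and 0.07. Of these 0 passed limma's test (1 higher and 3 lower at an unadjusted p under 0.05, 0 with edgeR, 2 lower with DESeq2). Their order over the samples differed from that of the cytosolic set, with median deviations of -0.04, -0.01 and 0.03 in WT and 0.07 and -0.05 in EID. The difference between the lists was not tested.

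Of the remaining marker lists, the satellite cell list had 1 of 4 genes lower, against 1.14% of all genes tested. This gene, Pax7, had 922, 942 and 837 normalized counts in WT and 414 and 298 in EID (log2 fold change -1.35, limma with Benjamini-Hochberg adjustment, adjusted p = 0.00764). At an unadjusted p under 0.05, 2 of the 4 were lower (8.31% of all genes tested) and 1 higher (1258 of all 18156), and edgeR and DESeq2 each called 1 lower. The one higher was Myf5, a factor that commits cells to muscle, with 3122, 2188 and 4399 in WT and 5152 and 5254 in EID (log2 fold change 0.74, limma adjusted p = 0.237). The pericyte list had 2 of 6 tested genes lower, against 1.14% of all genes tested. They were Rgs5 (125, 65.1 and 90.7 in WT and 9.84 and 11.7 in EID) and the receptor Notch3 (2887, 2801 and 2768 in WT and 1319 and 703 in EID), also called with edgeR and DESeq2. In the same list Cspg4 and Mcam were higher in both EID samples than in all WT samples, as were 16.7% of all genes tested. Cspg4 and Mcam had log2 fold changes of 0.39 and 0.61, and neither passed the test (1 higher at an unadjusted p under 0.05). Of 8 Schwann cell, 6 fibro-adipogenic and 4 macrophage markers tested, 0 passed limma's test (1, 2 and 1 higher at an unadjusted p under 0.05, 0 with edgeR and 0 with DESeq2). Their part in the results on ribosomal proteins was not tested.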

How the data were processed

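RNA sequencing covered primary mouse myoblasts differentiated for 72 h, WT (n = 3) and EID (n = 2), grouped by the genotype in the sample titles. Per the study's methods and processing notes, STAR 2.5.1b placed the untrimmed reads on GRCm38 and featureCounts 1.4.6 counted those with 1 place, in the reverse orientation. The signal that the authors deposited is this number over the size factor DESeq2 1.34.0 gave the sample. Whole reads were recovered from the deposited signal (100% of values whole within 0.01 of a read), which gave depths of 35021856 to 49381544. Of 54232 identifiers, 54165 matched GENCODE M21.

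Fold changes were computed on log2(normalized count + 1), which understates changes of low genes. The 18156 genes that reached 5 normalized counts in 1 or more samples were tested with limma 3.58.1 (two-sided, mean-variance trend, Benjamini-Hochberg, threshold 0.05). The study's count test is an alternative here, since the deposited values are not counts. edgeR 4.0.16 and DESeq2 1.42.0 on the recovered reads called 408 and 969 genes. The study states that primary cells typically came from independent mice but does not say so of these samples, so p-values measure only the spread between them. Replicates differed by more than sampling noise (chi-square per degree of freedom 31.4 to 46.6). Pseudogenes were assigned to the parent with the best blastn 2.17.0 match over at least 50% of their length, and shared stretches were exact 50-base matches. The tests were checked on simulated counts, in which planted fold changes were larger than those of any member and samples varied independently. That check does not cover small shifts or shifts shared by many genes. Members and lists were chosen with earlier results of these data known. Named genes were Rplp0, Rps3a1, Rpl3, Rpl3l, every member called, the 5 highest and 5 lowest fold changes, the 5 highest and 5 lowest levels per length, paralogs, members outside the lists, and other listed genes that were called. Alternatives varied the pseudocount, filter, scaling, tool, block, samples and treatment of copies. Protein sequences were not used here. A result on 1 further listed gene is not reported here.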

Additional observations from a re-analysis of the deposited data

How the results depend on the processing

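No member was called higher under any of the 19 alternatives tried. The number of members called lower was 3, and it was 1 without the filter on low values, 0 with limma without a trend and 5 with DESeq2. The number of all genes called was 404, and it was 155, 144 and 969 under the same settings. Leaving out 1 sample at a time gave 0 to 3 members lower and 34 to 335 genes. Without WT 1 or WT 2 only Rpl30 was called, without WT 3 Rps3a1, Rpl30 and Rpl3, without EID 1 only Rpl29, and without EID 2 none. With 1 EID sample left, it was assumed to vary like the WT samples. The median log2 fold change of the members was -0.16 and ranged from -0.229 to -0.125 without 1 sample. When every sample was shifted to the same median of the members, an alternative chosen after seeing the data, it was -0.0066, and the same 3 members were called. Adding copies to genes left 2 members, Rplp0 and Rpl30.

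A replicate block gave 224 genes and 3 members called. The numbers are not known to pair samples (correlation of deviations -0.27 over 12298 genes). With the numbers crossed, chosen after seeing the data, 1041 genes and 20 members were called, all 20 lower.

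For single named genes, 390 of 417 values under alternatives stayed on the same side of the threshold, 18 lost a call and 9 gained one, and 401 kept their sign. The cause of these differences was not tested. Merged exon lengths moved the lowest level per kb from 534 to 351. With 2 and 3 samples a group, the spread rests on few values. Intervals of fold changes cover these samples only.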
